A study of Rattus norvegicus with 23 samples.

Results

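The leucine tRNA reads of rat sperm are described here through the 23 rows of the tRNA table whose names begin with tRNA-Leu. These are 23 of the table's 273 rows. The 34 rows named tRX, of which 4 carry a leucine name, were left out of the members. By anticodon the members were 3 Leu-CAA rows, 6 Leu-AAG rows, 9 Leu-CAG rows, 2 Leu-TAA rows and 3 Leu-TAG rows, so 20 rows were set against the 3 Leu-CAA rows. The samples were sperm from the cauda epididymidis of 23 Long-Evans males, with 1 library for each rat. Of these, 7 breathed filtered air, 8 breathed 0.4 ppm ozone and 8 breathed 0.8 ppm ozone. Rats were in the chambers for 4 h at a time, 3 times in week 1 and 2 times in week 2, at measured averages of 0.401 or 0.798 ppm for ozone. The labels hold 7 air libraries, although the design speaks of 8 rats in each group. Genotype and age are not in the labels used here.

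A tRNA carries an amino acid to the ribosome and reads the codon through its anticodon. Leucine has several codons. Leu-CAA reads UUG, Leu-TAA reads UUA, Leu-CAG reads CUG, Leu-TAG reads CUA, and Leu-AAG, whose first anticodon base is changed to inosine, reads the remaining CU codons. The table writes anticodons in DNA letters. Mature sperm translate little, and their small RNA is rich in fragments cut from tRNAs, many of them gained while sperm pass through the epididymis. The table counts reads per tRNA gene and does not say whether a read was a whole tRNA or a fragment, nor which end it came from.

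Each library gave between 164342 and 481504 recovered tRNA reads (median 391901). Values below are the deposited normalized values, in which 1 read was worth 0.46 to 2.42 depending on the library. All 273 rows were above 0 in at least 8 libraries and entered the tests. The sperm label was checked in the miRNA table of the same libraries. The 5 measured of 6 sperm and germ cell markers held 30.8 to 47.9% of the miRNA signal in air, 23.6 to 44.3% at 0.4 ppm and 24.1 to 51.3% at 0.8 ppm. The 5 epididymal epithelium markers held 0.680 to 1.45%, 1.05 to 3.21% and 0.693 to 2.93%. The 5 leukocyte markers held 0.0253 to 0.122% and the 2 measured of 3 erythrocyte markers 0.00589 to 0.141% over all libraries. The normalized value of tRNA-Leu-CAA-2-2 showed no correlation past the threshold with these 4 shares or with read depth over the 23 rats. The largest in size was with the epithelium share, with Pearson's r of -0.27 (permutation p = 0.213, adjusted over 5 relations 0.588), Spearman's rho of -0.17 (permutation p = 0.427, adjusted 0.844), and r of -0.06 without the 2 farthest rats. In these bulk libraries, fewer cells of a type and less RNA per cell cannot be told apart.

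Leu-CAA, the reader of UUG, was the second most abundant anticodon of the sperm tRNA table. Its 3 rows together held 16.6% ± 3.89 of the table (SD, n = 23), between Gly-GCC at 31.8% ± 4.30 and Gly-CCC at 8.32% ± 1.26. It ranked behind Gly-GCC alone in 22 libraries and ahead of it in 1, replicate 4 of 0.8 ppm. The ratio of Leu-CAA to Gly-GCC had a median of 0.526 and ran from 0.295 to 1.09. Leu-CAA lay above Gly-CCC in 23 of 23 libraries, by a median of 1.99 times (1.21 to 4.36). The row tRNA-Leu-CAA-2-2 was the most abundant single row of the table in 17 of the 23 libraries and never ranked below 7. The rank of a single row also depends on how reads were divided between gene copies, which is not known. The Gly-GCC signal lay over 11 rows and that of Leu-CAA over 3.

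All leucine rows together held 22.8% ± 4.87 of the table (SD, n = 23), and Leu-CAA made up 72.7% ± 4.79 of that leucine signal. Leu-AAG followed with 12.9% ± 2.34 of the leucine signal, then Leu-TAG with 10.3% ± 2.39, Leu-TAA with 3.60% ± 0.823 and Leu-CAG with 0.510% ± 0.285. Leu-CAA exceeded Leu-AAG in 23 of 23 libraries, by a median of 5.57 times (3.07 to 8.20). Leu-AAG exceeded Leu-TAG in 22 of 23 libraries, but by a median of only 1.27 times (0.860 to 1.72), so these neighbours lay close together. Leu-TAG exceeded Leu-TAA by a median of 3.19 times and Leu-TAA exceeded Leu-CAG by a median of 8.65 times, each in 23 of 23 libraries. From end to end, the Leu-CAA sum was a median of 170.6 times the Leu-CAG sum (42.6 to 344). In the sums plotted by anticodon the 5 leucine anticodons form separate steps, except for Leu-AAG and Leu-TAG.

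**Figure D1:**
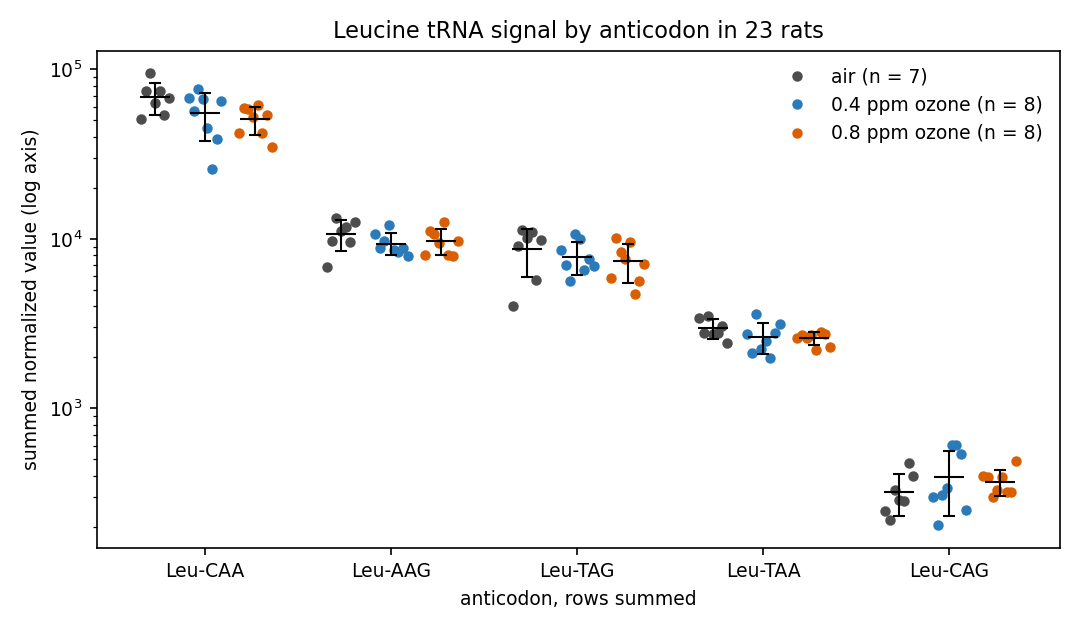
Summed normalized value of the rows of each leucine anticodon (vertical axis, log scale) for every rat, by group, with points as rats and bars as mean ± SD (n = 7, 8 and 8). Leu-CAA lies highest in every rat and Leu-CAG lowest, and the 3 groups overlap within each anticodon.

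Abundance did not follow the number of gene copies. The GRCr8 RefSeq annotation, used only for names and these gene counts, lists 25 Leu-CAG and 21 Leu-AAG genes. It lists 3 for Leu-CAA, 3 for Leu-TAG and 2 for Leu-TAA. Its gene set is not that of the tRNA table, which has 9 Leu-CAG and 6 Leu-AAG rows and whose processing notes list rn6. The anticodon with the most genes, Leu-CAG, thus had the least signal, 0.111% ± 0.0501 of the table (SD, n = 23), spread over 9 rows. Of these, tRNA-Leu-CAG-1-2 and tRNA-Leu-CAG-2-3 had medians of 92.1 and 93.8 (normalized value). The other 7 had medians between 17.2 and 23.0, which rest on medians of 20 to 24 reads per library, so that their single values are imprecise.

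Within an anticodon, 1 or a few rows held most of the signal. In the plot of row levels, tRNA-Leu-CAA-2-2 had a median of 32071 (14245 to 51463 over 23 rats) and tRNA-Leu-CAA-1-1 one of 25142 (10760 to 41721). The third row, tRNA-Leu-CAA-2-1, had a median of 1007 (737.0 to 1747). As shares of the Leu-CAA signal these were 55.0% ± 0.988, 43.0% ± 1.05 and 1.95% ± 0.506 (SD, n = 23). The first 2 shares thus hardly varied between rats, while the third varied more for its size. For Leu-TAG, tRNA-Leu-TAG-2-1 led with a median of 6582 (3373 to 9923). tRNA-Leu-TAG-1-1 had a median of 885.7 and tRNA-Leu-TAG-3-1 one of 147.4. For Leu-TAA, tRNA-Leu-TAA-1-1 had a median of 2646 (1908 to 3521) and tRNA-Leu-TAA-2-1 one of 72.2. For Leu-AAG, 3 rows shared the lead with medians of 2852, 2938 and 2944 (tRNA-Leu-AAG-1-1, tRNA-Leu-AAG-1-2 and tRNA-Leu-AAG-2-2).

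**Figure D2:**
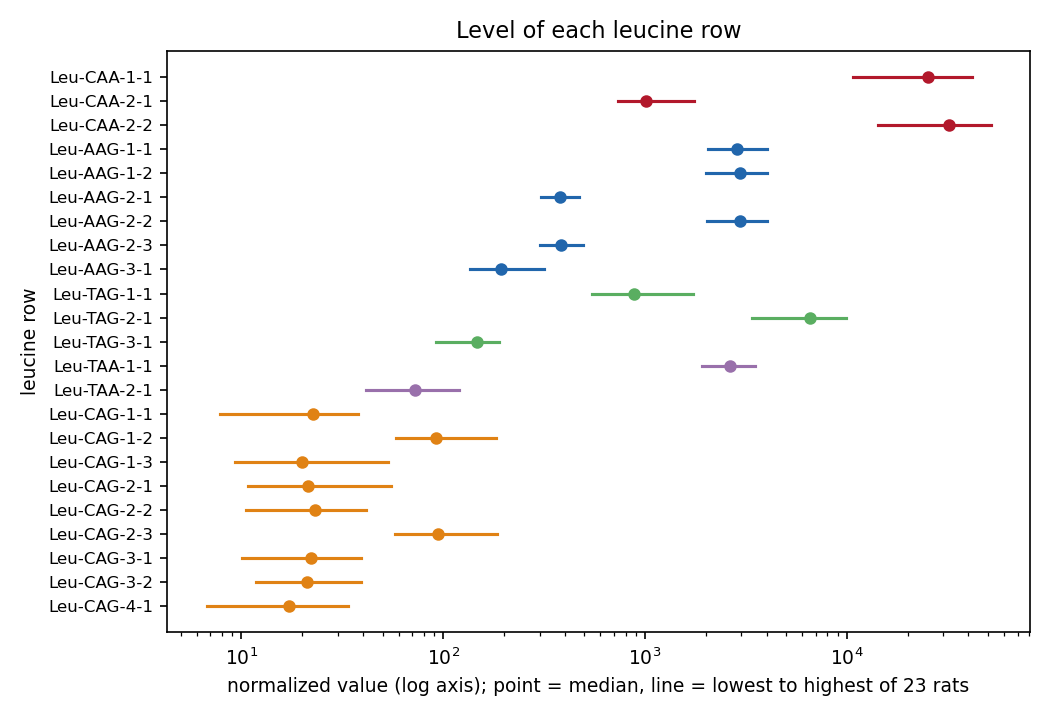
Normalized value (horizontal axis, log scale) of each of the 23 leucine rows over 23 rats, with the point at the median and the line from the lowest to the highest rat, coloured by anticodon. Rows of 1 anticodon can lie at very different levels, with tRNA-Leu-CAA-1-1 and tRNA-Leu-CAA-2-2 at or above 10760 in every rat and tRNA-Leu-CAA-2-1 at or below 1747.

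The row names follow the genomic tRNA convention, in which the first number marks a transcript sequence and the second a gene copy of it. Some copies of the same transcript number had very different levels. tRNA-Leu-CAA-2-1 had a median of 0.0313 of the value of tRNA-Leu-CAA-2-2 (0.0241 to 0.0559) and was lower in 23 of 23 libraries. tRNA-Leu-AAG-2-2 had a median of 7.92 times the value of tRNA-Leu-AAG-2-3 (5.67 to 9.76), and tRNA-Leu-CAG-1-2 had 4.50 times that of tRNA-Leu-CAG-1-3 (2.61 to 8.50). Other rows matched closely, both within and across transcript numbers. Across numbers, the ratio of tRNA-Leu-AAG-1-1 to tRNA-Leu-AAG-2-2 had a median of 0.997 (0.926 to 1.03). The squared difference of their reads over the sum of their reads averaged 1.13 over the libraries, where counting error alone gives a value near 1. The same measure was 1.17 for tRNA-Leu-CAG-1-2 with tRNA-Leu-CAG-2-3. Within a number it was 0.848 for tRNA-Leu-AAG-1-1 with tRNA-Leu-AAG-1-2 and 0.658 for tRNA-Leu-AAG-2-1 with tRNA-Leu-AAG-2-3. Still other rows of different numbers lay far apart, such as tRNA-Leu-CAA-1-1 at a median of 23.6 times tRNA-Leu-CAA-2-1. These 4 pairs thus differed by about as much as counting noise gives, but they were picked among many close pairs. The leading rows tRNA-Leu-AAG-1-2 and tRNA-Leu-AAG-2-2 stood at 1.40. Close pairs ran from 0.242 for tRNA-Leu-CAG-1-1 with tRNA-Leu-CAG-3-2 to 1.88 for tRNA-Leu-CAG-2-2 with tRNA-Leu-CAG-4-1. No 2 rows held identical values throughout. No source used here says how reads matching several copies were divided, so a value for a single copy is uncertain and the anticodon sums carry the comparisons. Whether reads were also shared between anticodons, which would affect the sums, was not tested.

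Across rats, the leucine anticodons did not move as a unit. All correlations that follow are Pearson's r of log2(value + 1) over 23 rats, given as a description, and the points share libraries and their scaling. tRNA-Leu-CAA-1-1 and tRNA-Leu-CAA-2-2 moved almost together (r = 0.99), while tRNA-Leu-CAA-2-1 followed them less closely (r = 0.58 and 0.61). Among the sums, Leu-AAG and Leu-TAG moved together (r = 0.82), and Leu-CAA was related to Leu-AAG (0.59), Leu-TAA (0.48) and Leu-TAG (0.46). The Leu-CAA and Leu-CAG sums ran opposite (r = -0.62). A sum mostly follows its leading rows, and single rows varied more. Over pairs of rows, r ran from 0.05 to 0.86 between Leu-AAG and Leu-TAG and from 0.15 to 0.63 between Leu-AAG and Leu-CAA. For Leu-CAA rows it ran from -0.33 to 0.55 with Leu-TAA and from -0.32 to 0.53 with Leu-TAG. Over the 27 pairs of a Leu-CAA and a Leu-CAG row the median was -0.44 (-0.65 to 0.16), whereas the 36 pairs among Leu-CAG rows had a median of 0.65 (0.43 to 0.89). The correlation map of the 23 rows shows 1 block for Leu-CAG and another for Leu-AAG, but neither was confined to its anticodon. tRNA-Leu-TAG-3-1 had r of 0.42 to 0.75 with the Leu-CAG rows. tRNA-Leu-TAG-2-1 had r of 0.83 to 0.86 with the leading Leu-AAG rows.

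**Figure D3:**
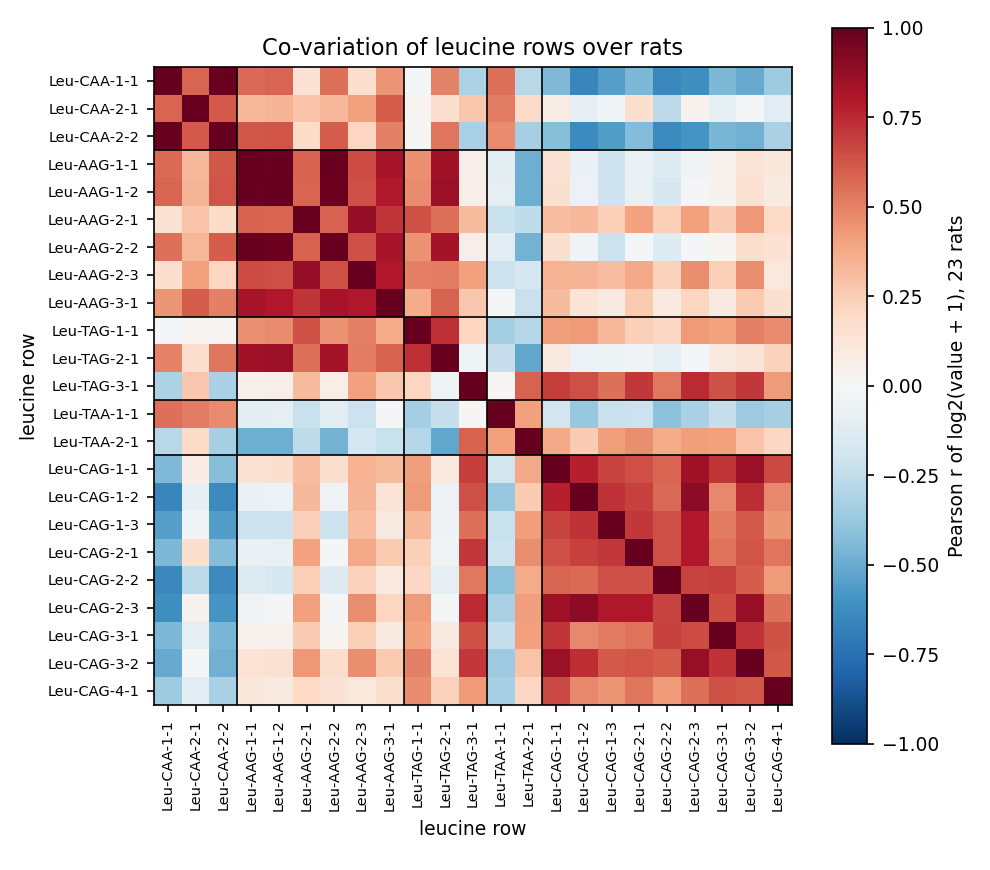
Pearson correlation (colour, -1 to 1) of log2(value + 1) between each pair of the 23 leucine rows over 23 rats, with black lines between anticodons. The Leu-CAG rows form a positive block, and tRNA-Leu-CAA-1-1 and tRNA-Leu-CAA-2-2 are negatively related to it.

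The opposite movement of Leu-CAA and Leu-CAG could be seen in single rats. The lowest Leu-CAA sum, 25742, belonged to replicate 6 of 0.4 ppm, whose Leu-CAG sum of 604.2 was the second highest of the 23. Replicate 8 of 0.8 ppm had the second lowest Leu-CAA sum, 34864, with a Leu-CAG sum of 490.8. Replicate 7 of 0.4 ppm followed with 38644 for Leu-CAA and 538.9 for Leu-CAG. At the other end, replicate 3 of air had the highest Leu-CAA sum, 94763, with a Leu-CAG sum of 330.0, which was the median. The spread over rats was a coefficient of variation of 31.3% for the Leu-CAG sum, 27.1% for Leu-CAA, 26.6% for Leu-TAG, 17.9% for Leu-AAG and 15.7% for Leu-TAA. The Leu-TAA value was the lowest of the table's 41 anticodons, and Leu-CAA ranked 26 of 41 from the most to the least variable.

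Outside leucine, the rows most like tRNA-Leu-CAA-2-2 over the 23 rats were tRNA-Arg-CCG-2-1 (r = 0.83), tRNA-Ser-AGA-3-1 (0.83), tRNA-Ser-AGA-1-1 (0.83), tRNA-Ser-AGA-4-1 (0.81) and tRNA-Ser-AGA-2-1 (0.80). The row least like it was tRNA-iMet-CAT-1-6 (r = -0.85), an initiator methionine tRNA. The leading row of the other anticodons, tRNA-Leu-TAG-2-1, had other partners. These were tRNA-Glu-TTC-2-1, tRNA-Glu-TTC-4-3 and tRNA-Glu-TTC-4-1 (r = 0.70 each), tRNA-Glu-TTC-2-2 (0.69) and tRNA-Gly-CCC-4-2 (0.68).

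The exposure comparison asked whether ozone changed these reads. No leucine row passed an adjusted p of 0.05 in limma in any of the 3 contrasts. The same held for the whole table: 0 of 273 rows (0%) were called at 0.4 ppm against air, at 0.8 ppm against air and at 0.8 against 0.4 ppm. At an unadjusted p under 0.05, limma gave 16 rows (5.86%), 5 rows (1.83%) and 6 rows (2.2%) in these contrasts, none of them leucine. With limma's voom on recovered reads the counts were 0 adjusted and 19 (6.96%), 5 (1.83%) and 6 (2.2%) unadjusted, again without a leucine row. The exact rank-sum test also called 0 rows after adjustment. Unadjusted it gave 7 rows (2.56%), 17 rows (6.23%) and 3 rows (1.1%), and 6 of the 17 at 0.8 ppm against air were leucine rows. These were the 3 Leu-CAA rows and tRNA-Leu-TAA-1-1, with lower values than air, and tRNA-Leu-CAG-1-3 and tRNA-Leu-CAG-2-2, with higher values, at an adjusted exact p of 0.644 each. All 23 leucine rows overlapped between the groups in every contrast. The same count was not made over all 273 rows, so it shows nothing particular to leucine.

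The Leu-CAA sum had its highest mean and median in air, but no difference passed the test. It ran from 50613 to 94763 in air with a median of 68145, from 25742 to 76466 at 0.4 ppm with a median of 60732, and from 34864 to 61353 at 0.8 ppm with a median of 53069. All 8 rats at 0.8 ppm lay below the air median and 3 of them below the lowest air rat. At 0.4 ppm, 7 of 8 lay below the air median and 3 below the lowest air rat. Group means were 68563 ± 14996 (SD, n = 7), 55251 ± 17278 (n = 8) and 50611 ± 9751 (n = 8). In limma, over all 41 anticodon sums, the log2 fold change was -0.36 ± 0.22 (SE) at 0.4 ppm (95% interval -0.80 to 0.09, adjusted p = 0.718) and -0.43 ± 0.22 at 0.8 ppm (-0.88 to 0.01, unadjusted p = 0.0553, adjusted p = 0.892). At 0.8 ppm this corresponds to a fold of 0.740 with an interval of 0.544 to 1.01. The size of the 0.8 ppm value depended on the scaling. Its log2 fold change was -0.13 when libraries were rescaled to equal totals and -0.05 under quantile normalization. At 0.4 ppm, rescaling gave -0.34 (-0.65 to -0.02, limma unadjusted p = 0.0370, adjusted p = 0.908). Quantile normalization gave -0.26 at that dose (-0.51 to -0.0012, limma unadjusted p = 0.0490, adjusted p = 0.529). On these 2 scalings the 0.4 ppm value was thus the larger in size. On the deposited scaling, the 0.4 ppm value rested partly on 1 rat and was -0.21 without replicate 6 of that group. Between the 2 doses the log2 fold change was -0.08 ± 0.21 (-0.51 to 0.35, adjusted p = 0.984), a sign that turned to 0.20 when libraries were rescaled to equal totals. None of the 41 sums was called in any contrast by limma, voom or the exact rank-sum test (0% each). At an unadjusted p under 0.05 on the deposited scaling, limma and voom each gave 2 sums at 0.4 ppm against air (4.88%). They gave 0 in the other contrasts, and none of the sums was leucine. The exact rank-sum test gave 1 sum at 0.4 ppm (2.44%), not leucine, and 4 at 0.8 ppm against air (9.76%), among them Leu-CAA (unadjusted exact p = 0.0289) and Leu-TAA (exact p = 0.0401), each with an adjusted value of 0.370. The contrasts with air share the same 7 air rats.

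The 3 Leu-CAA rows each gave negative values at both doses. tRNA-Leu-CAA-2-2 ran from 27239 to 51463 in air (median 38119), from 14245 to 42128 at 0.4 ppm (median 33373) and from 19323 to 35144 at 0.8 ppm (median 29065). Its groups overlapped, although all 8 rats at 0.8 ppm lay below the air median. Its log2 fold change against air was -0.36 ± 0.23 at 0.4 ppm (limma adjusted p = 0.779) and -0.44 ± 0.23 at 0.8 ppm (-0.90 to 0.02, unadjusted p = 0.0591, limma adjusted p = 0.935). tRNA-Leu-CAA-1-1 ran from 22400 to 41721 in air, from 10760 to 32591 at 0.4 ppm and from 14763 to 26532 at 0.8 ppm, with medians of 28779, 26127 and 22861. Its log2 fold changes were -0.36 and -0.43. tRNA-Leu-CAA-2-1 had medians of 1161, 941.6 and 917.3 and log2 fold changes of -0.23 and -0.34. Among the leucine rows, the smallest unadjusted p was that of tRNA-Leu-CAA-2-2 against air at both doses, 0.119 and 0.0591. Between the doses it was that of tRNA-Leu-CAG-2-2, 0.133, with a log2 fold change of 0.38 ± 0.25 and a limma adjusted p of 0.788.

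In 1 alternative, where limma weighted each library by its own scatter, 2 leucine rows passed at 0.8 ppm against air. These were tRNA-Leu-CAA-2-2 with a log2 fold change of -0.59 and tRNA-Leu-CAA-1-1 with -0.54, each at an adjusted p of 0.0394. In that fit 22 of 273 rows were called (8.06%), 16 of them lower than air (5.86%), so that 2 of 23 leucine rows is close to the share in the whole table. The Leu-CAA sum was -0.54 in the same fit, with a limma adjusted p of 0.0548, and no sum was called (0%). Library weights ran from 0.319 for replicate 5 of 0.4 ppm and 0.329 for replicate 5 of 0.8 ppm to 3.40 for replicate 4 of air. Over all alternatives run, the limma or rank-sum adjusted p of tRNA-Leu-CAA-2-2 at 0.8 ppm ranged from 0.0394 to 0.999.

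The other leucine anticodons gave smaller values against air. Leu-AAG had log2 fold changes of -0.17 at 0.4 ppm and -0.13 at 0.8 ppm, Leu-TAA of -0.18 and -0.19, and Leu-TAG of -0.10 and -0.20, and at 0.8 ppm these 3 turned to 0.17, 0.12 and 0.10 on rescaling to equal totals. Leu-CAG had positive values, 0.24 ± 0.22 (-0.21 to 0.68) and 0.23 ± 0.22 (-0.22 to 0.67). Limma adjusted p-values were 0.718 to 0.892 over these 4 sums and both doses. Leu-CAG ran from 217.7 to 474.3 in air (median 287.9), from 204.0 to 605.0 at 0.4 ppm (median 323.1) and from 298.4 to 490.8 at 0.8 ppm (median 361.0). Its 3 highest values were all at 0.4 ppm, but the lowest was as well. Among the leading rows, tRNA-Leu-AAG-2-2 had medians of 3394, 2709 and 2876 in air, 0.4 ppm and 0.8 ppm. tRNA-Leu-TAG-2-1 had medians of 8765, 6364 and 6284, tRNA-Leu-TAA-1-1 of 2736, 2543 and 2583, and tRNA-Leu-CAG-1-2 of 81.5, 99.2 and 101.9. None of these 4 rows was called, and their groups overlapped.

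By direction, 10 of the 23 leucine rows had positive and 13 negative log2 fold changes at each dose against air, with medians of -0.02 and -0.06. Over all 273 rows the medians were -0.01 and -0.02, with 131 and 130 positive. The 3 Leu-CAA rows were negative at both doses, the 6 Leu-AAG rows were negative in 6 and 5 cases, and 7 of the 9 Leu-CAG rows were positive at both doses. The signs at 0.8 ppm depended on the scaling: when libraries were rescaled to equal totals over the tRNA table, the median of all rows at 0.8 ppm against air moved from -0.02 to 0.28. All rows of a library move alike under rescaling, and 231 of 273 rows were then positive (130 before), with 20 of 23 leucine rows (10 before). tRNA-Leu-CAA-2-2 moved from -0.44 to -0.14, while relative to the median of all rows it stood at -0.43 before and -0.42 after rescaling. The deposited table totals of the 7 air rats averaged 373594 ± 45278 (SD). Those of the 8 rats at 0.4 ppm averaged 373679 ± 83490, and those of the 8 rats at 0.8 ppm averaged 309559 ± 82638. Under quantile normalization tRNA-Leu-CAA-2-2 was at -0.01 at 0.8 ppm, and at -0.02 relative to the median of all rows. No test was made on the values relative to the median.

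**Figure D4:**
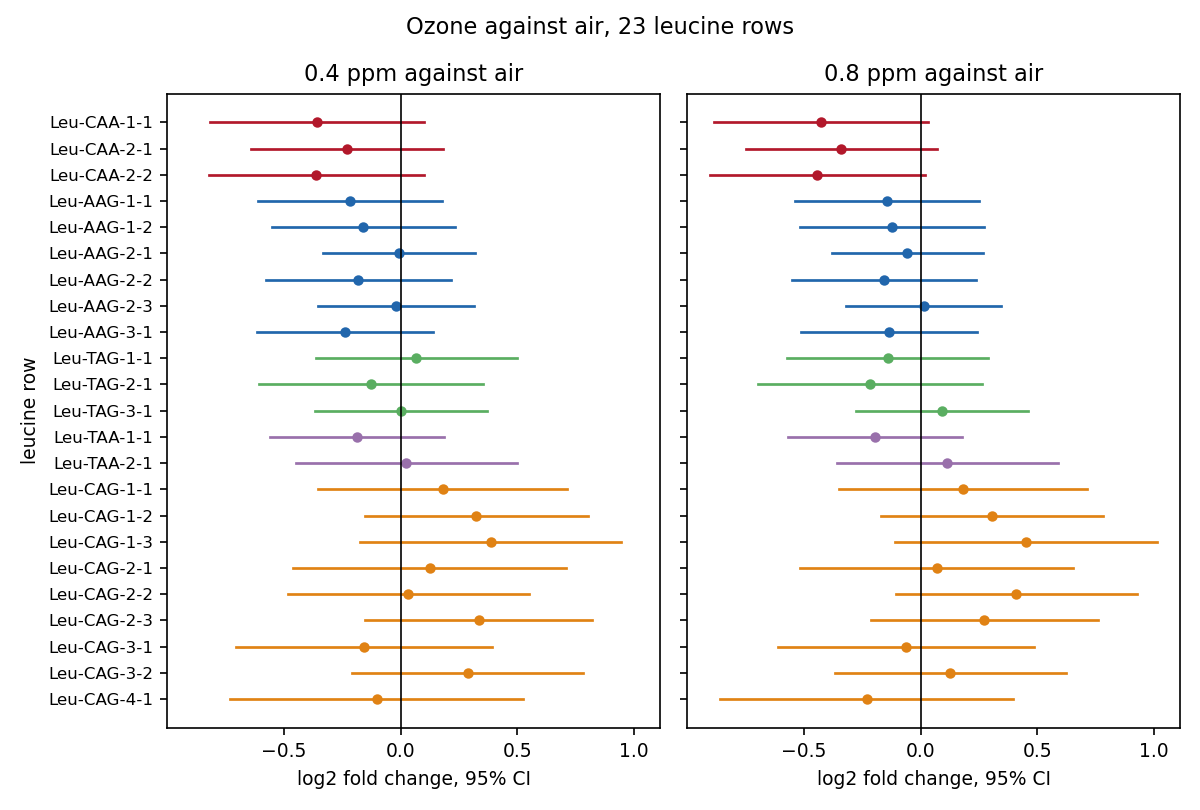
Log2 fold change against air (points) with 95% intervals (lines) for the 23 leucine rows at 0.4 ppm (left) and 0.8 ppm (right), from limma on log2(value + 1), coloured by anticodon. Every interval includes 0, and the Leu-CAA rows lie left of 0 at both doses.

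Shares within a library do not depend on its scaling factor. Leu-CAA held 12.6 to 23.6% of the tRNA table in air (median 17.3%), 9.27 to 18.6% at 0.4 ppm (median 14.6%) and 11.7 to 23.7% at 0.8 ppm (median 16.0%). The means were 18.4% ± 3.72 (SD, n = 7), 14.7% ± 3.30 (n = 8) and 17.0% ± 4.14 (n = 8), with no test made on shares. The groups overlapped widely, and the single highest share, 23.7%, was at 0.8 ppm. Counting error was small beside this: the lowest share, 9.27% in replicate 6 of 0.4 ppm, had a 95% Wilson interval of 9.15 to 9.39%, which covers counting error only. All leucine rows together held 24.5% ± 4.52, 20.4% ± 3.65 and 23.7% ± 5.74 of the table in the same order.

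Within the leucine signal, Leu-CAA held 72.2 to 77.7% in air (median 74.5%), 59.6 to 79.9% at 0.4 ppm (median 73.9%) and 64.0 to 76.4% at 0.8 ppm (median 71.9%). At 0.8 ppm, 7 of 8 rats lay below the air median and 4 below the lowest air rat. At 0.4 ppm the rats spread to both sides, with 2 above the highest and 3 below the lowest air rat. The means were 75.1% ± 2.25, 71.9% ± 6.88 and 71.5% ± 3.47. The log2 ratio of Leu-CAA to the other leucine anticodons was tested among 29 such ratios. It differed from air by -0.22 ± 0.17 at 0.4 ppm (-0.57 to 0.14, limma adjusted p = 0.428) and -0.27 ± 0.17 at 0.8 ppm (-0.62 to 0.09, limma adjusted p = 0.427). Leaving out replicate 6 of 0.4 ppm took the value at that dose to -0.10, and quantile normalization took the value at 0.8 ppm to -0.09. The ratio of Leu-CAG to the other leucine anticodons was 0.53 ± 0.33 and 0.59 ± 0.33, with limma adjusted p of 0.428 and 0.368. That of Leu-AAG, a larger part of the leucine signal, was 0.14 ± 0.14 and 0.26 ± 0.14. Its limma adjusted p was 0.562 and 0.368, with an interval of -0.03 to 0.56 at 0.8 ppm. None of the 29 ratios was called in limma at any contrast (0% each). At an unadjusted p under 0.05, limma gave 2 ratios (6.9%) at 0.4 ppm and 4 (13.8%) at 0.8 ppm, none of them leucine. The exact rank-sum test gave 0 adjusted, and unadjusted 9 ratios (31%) at 0.8 ppm, of which 3 were leucine (Leu-CAA, Leu-AAG and Leu-CAG). For Leu-CAA this exact p was 0.0140 and its adjusted value 0.0850. At 0.4 ppm it gave 2 ratios (6.9%), neither of them leucine. Ratios within an amino acid are tied, since a lower Leu-CAA, most of the leucine signal, by itself raises the other leucine ratios. The 3 leucine ratios are thus not separate results. With library weights 2 ratios were called at 0.8 ppm against air (6.9%), neither of them leucine. The epithelium markers had a mean share of 1.77% ± 0.713 at 0.4 ppm (n = 8) and 1.13% ± 0.325 in air (n = 7), and their part in these ratios was not tested.

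**Figure D5:**
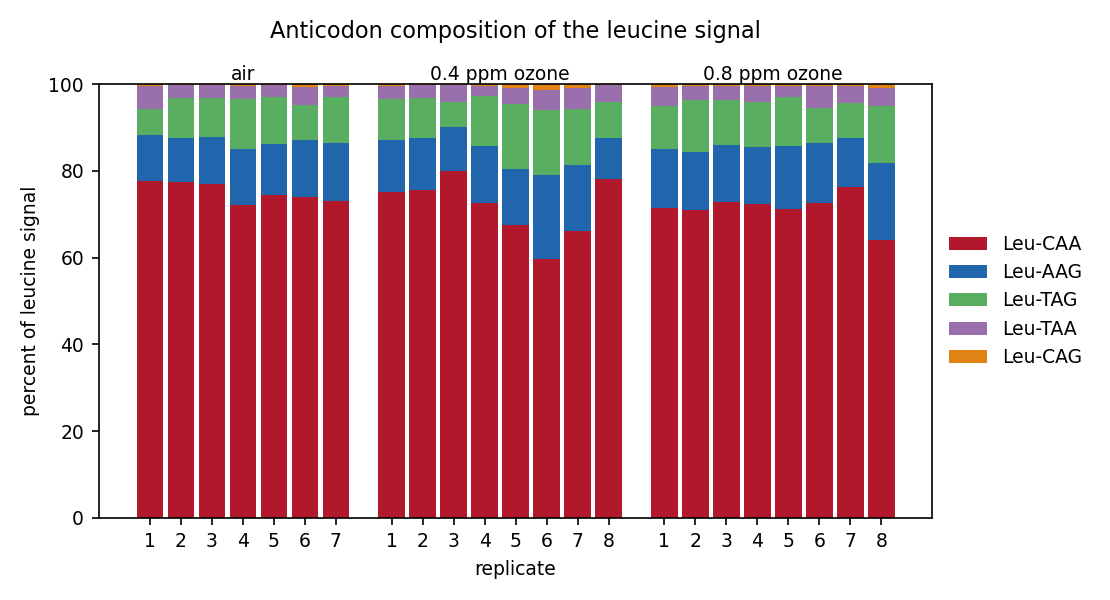
Percent of the leucine signal (vertical axis) held by each anticodon in every rat (bars, numbered by replicate), by group. Leu-CAA fills 59.6 to 79.9% of each bar, with the lowest bar in replicate 6 of 0.4 ppm and the lowest bar at 0.8 ppm, 64.0%, in replicate 8.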

How the data were processed

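Small RNA under 200 nucleotides of 23 rats was sequenced for 75 cycles on a NextSeq 500, per the labels' protocols, which give RNA integrity numbers of 2 to 4. Partek, Bowtie 1.0.0 and rn6 are listed in the submitters' processing notes. The assignment of tRNA reads to rows, and of reads that match several copies, is not given in the sources used. The authors deposited a scaled signal per row. Its median ratio to the geometric mean library was 1.01 in each of the 23 libraries, as after median-ratio scaling. All 252 to 265 values under 5000 reads that were checked per library were whole multiples of 1 step within 0.1 read, which recovered tRNA reads. No 2 libraries were identical. Each rat is a separate sample. The library names carry sample-sheet numbers from 1 to 12, of which 11 stand on 2 libraries each, and no label says which libraries were run together, so the part of a sequencing run was not tested.

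From these values, limma 3.58.1 in R 4.3.3 was fitted with trend and robust moderation to log2(value + 1), a scale that understates the change of low rows, over 3 groups in 1 model. Fits ran on 273 rows, 41 anticodon sums and 29 log2 ratios of an anticodon to the others of its amino acid. Adjusted p is Benjamini-Hochberg over each table and contrast, two-sided, at 0.05. The filter was a value above 0 in at least 8 libraries. The fits were run on simulated counts with larger changes than those reported here and no scaling differences between libraries. That run does not speak for the small, scaling-dependent values above. Permutation p-values used 100000 resamples. Alternatives were other pseudocounts and scalings, library weights, voom, an exact rank-sum test and leaving out each rat. Rows named with values are all Leu-CAA rows, the most abundant row of each other leucine anticodon, the leucine row with the smallest p in each contrast, and any past the threshold. Marker lists were measured in the miRNA table. In the Ensembl table, 1 of 6 epithelium markers was listed, and 0 of 12 sperm, 0 of 4 leukocyte, 0 of 3 erythrocyte and 0 of 16 tRNA cleavage and charging genes were, so those were not used here. The piRNA table was not used. Members, lists and tests were chosen with earlier results of these data known. Python 3.11.15 was used for the rest.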

Additional observations from a re-analysis of the deposited data

Results flagged for a closer look

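In 102 tests of a group of 7 or 8 rats for 1 value standing apart from the rest (Dixon's test at 95%), 9 values stood apart, and chance flags about 1 group in 20. Only 1 concerned the composition of the leucine signal: at 0.8 ppm, Leu-CAA held 64.0% of it in replicate 8, where the next lowest rat had 71.0%. In the same rat tRNA-Leu-CAG-2-3 had the highest normalized value of its group, 147.8, with the next at 113.7. Of the Leu-CAA rows, tRNA-Leu-CAA-2-1 stood apart at 0.8 ppm in replicate 7, at 1408 against 1067 for the next rat. In replicate 6 of air, tRNA-Leu-CAG-1-2 was highest at 120.3 (next 91.1) and tRNA-Leu-CAG-2-1 at 55.3 (next 27.3). tRNA-Leu-CAG-3-1 was highest in replicate 7 of air at 39.0 (next 23.4), and tRNA-Leu-CAG-2-2 lowest in replicate 6 of 0.8 ppm at 17.4 (next 23.0). tRNA-Leu-AAG-3-1 was highest in replicate 5 of 0.8 ppm at 317.0 (next 219.0). tRNA-Leu-TAG-1-1 was highest in replicate 5 of 0.4 ppm at 1720 (next 1160).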

How the results depend on the processing

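Of 1206 values recomputed under alternatives, 1168 stayed the same and 26 changed sign. A further 3 newly passed the threshold, 0 lost it, and 9 shares moved by more than 1 SD. The same means an unchanged direction and side of the threshold, an unchanged count of rows called, or a share within 1 SD. All 273 rows passed the filter and none were identical, so dropping the filter or collapsing identical rows only repeated the main fit. The rank-sum test kept the fold change by construction, and most alternatives to a fold change left out 1 rat. The count of unchanged values is thus no measure of robustness. The 3 that newly passed came from library weights at 0.8 ppm against air: tRNA-Leu-CAA-1-1 (-0.54), tRNA-Leu-CAA-2-2 (-0.59) and hence 2 leucine rows called. The cause was not tested. Sign changes came from rescaling to equal totals and from quantile normalization, in that order below. At 0.8 against 0.4 ppm, they gave tRNA-Leu-CAA-1-1 0.21 and 0.23, tRNA-Leu-CAA-2-1 0.17 and 0.072, tRNA-Leu-CAA-2-2 0.20 and 0.21, the Leu-CAA sum 0.20 and 0.21, and the Leu-CAA ratio 0.089 under quantile normalization. At 0.8 ppm against air, they gave tRNA-Leu-AAG-2-2 0.15 and 0.10, tRNA-Leu-TAA-1-1 0.11 and 0.037, tRNA-Leu-TAG-2-1 0.087 and 0.000253, the Leu-AAG sum 0.17 and 0.090, the Leu-TAA sum 0.12 and 0.037, and the Leu-TAG sum 0.10 on rescaling. Leaving out each rat changed signs only at 0.8 against 0.4 ppm, where tRNA-Leu-CAA-1-1 ranged from -0.22 to 0.0095, the Leu-CAA sum from -0.22 to 0.00180 and the Leu-CAA ratio from -0.17 to 0.037. At 0.4 ppm against air, leaving out each rat gave the Leu-CAA sum -0.44 to -0.21 and the Leu-CAA ratio -0.30 to -0.098, both highest without replicate 6 of 0.4 ppm. At 0.8 ppm against air, leaving out each rat kept tRNA-Leu-CAA-2-2 between -0.52 and -0.36, with a smallest limma adjusted p of 0.656. With glycine rows out of the denominator, Leu-CAA held 34.4, 28.5 and 29.6% of the table in air, 0.4 and 0.8 ppm, and all leucine rows 45.7, 39.3 and 41.5%. Without the most abundant Leu-CAA row, Leu-CAA held 57.5, 53.9 and 53.2% of the leucine signal. No paired analysis was possible because the replicate numbers follow the order of the samples and tie no rat of 1 group to a rat of another. Depth limits the 7 lowest Leu-CAG rows, which rest on medians of 20 to 24 reads.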
